A study of Homo sapiens with 2 samples.

Results

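The 8 genes described here form the bile acid axis around fibroblast growth factor 19: the bile acid receptor NR1H4, also called FXR; FGF19; the transporter genes SLC51A and SLC51B; the repressor NR0B2; the receptor genes FGFR4 and KLB; and the nuclear receptor NR5A2. They were taken by gene name from the 11976 genes that both deposited tables list, and all 8 were found, each on 1 row. The genes were selected on roles in the pathway and on their control and USP22 shRNA levels in these same libraries, so their values are a description and carry no test. Messenger RNA of Huh7 cells, a line derived from a human hepatocellular carcinoma, was sequenced after transfection of a control shRNA (1 library) or of an shRNA against USP22 (1 library), which encodes the deubiquitinase of SAGA, a chromatin-modifying complex. Both libraries come from the same line and differ, per the labels, in the shRNA alone. No source used here states how many shRNA sequences were used or the time after transfection. There is no replicate of either group and so no error to set a difference against, and each statement of a higher or lower level is about 1 library beside 1 other.

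Bile acids that return to cells bind NR1H4, which pairs with the retinoid X receptor RXRA and switches on target genes. Among the targets are FGF19, a hormone secreted by the ileum and made by some liver tumours, NR0B2, which encodes the repressor SHP, and SLC51A and SLC51B, the subunits of the transporter that moves bile acids out across the basolateral membrane. FGF19 signals to hepatocytes through the tyrosine kinase FGFR4 and its co-receptor beta-Klotho, encoded by KLB, and lowers bile acid synthesis. NR5A2, also called LRH-1, drives bile acid synthesis genes and is held back by NR0B2.

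RefSeq windows of 300 bases, from 250 before to 50 after an annotated start on GRCh38.p14, matched 6 of the 8 genes, not FGF19 or NR0B2, and gave 8 windows because FGFR4 and NR5A2 have more than 1 start. The windows of the transporter genes are shown because both subunits had low values in the USP22 shRNA library, and those of the receptor genes because FGFR4 and KLB differed in opposite directions. SLC51A lies at chr3:196216284-196216583, SLC51B at chr15:65045137-65045436, KLB at chr4:39406680-39406979 and the first FGFR4 window at chr5:177086665-177086964, all on the plus strand. Capitals mark AGGTCA, the core motif of many nuclear receptors, on either strand, matches to the inverted repeat AGGTCANTGACCT with up to 2 mismatches, and the GC box GGGCGG on either strand.
SLC51A: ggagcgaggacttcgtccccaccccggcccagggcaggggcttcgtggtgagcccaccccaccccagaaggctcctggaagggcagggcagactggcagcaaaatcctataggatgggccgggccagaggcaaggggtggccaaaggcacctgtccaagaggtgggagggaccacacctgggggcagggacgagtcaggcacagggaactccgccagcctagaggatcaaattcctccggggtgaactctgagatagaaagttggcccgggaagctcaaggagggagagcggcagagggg
SLC51B: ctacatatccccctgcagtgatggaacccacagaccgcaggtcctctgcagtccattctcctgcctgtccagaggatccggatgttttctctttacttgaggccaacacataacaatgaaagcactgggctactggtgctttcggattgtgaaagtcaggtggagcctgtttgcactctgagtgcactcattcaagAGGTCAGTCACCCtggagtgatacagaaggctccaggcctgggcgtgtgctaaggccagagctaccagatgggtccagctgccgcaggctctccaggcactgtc
KLB: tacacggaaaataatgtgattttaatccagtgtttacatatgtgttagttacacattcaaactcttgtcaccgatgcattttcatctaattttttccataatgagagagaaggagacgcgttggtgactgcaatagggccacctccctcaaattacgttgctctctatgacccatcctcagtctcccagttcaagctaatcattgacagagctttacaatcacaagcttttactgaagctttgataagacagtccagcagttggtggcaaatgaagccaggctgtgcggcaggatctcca
FGFR4: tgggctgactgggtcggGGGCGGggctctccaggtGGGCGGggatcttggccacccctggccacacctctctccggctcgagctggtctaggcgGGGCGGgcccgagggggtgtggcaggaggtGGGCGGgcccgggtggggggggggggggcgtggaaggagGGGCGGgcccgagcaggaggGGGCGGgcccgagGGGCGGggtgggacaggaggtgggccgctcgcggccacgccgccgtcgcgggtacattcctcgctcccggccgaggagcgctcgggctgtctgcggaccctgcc

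The inverted repeat is the arrangement that NR1H4 with RXRA is known to bind. Among the 8 windows, 1 held a match with up to 2 mismatches, the SLC51B window, where AGGTCAGTCACCC begins 54 bases before the start. Of 35116 such windows of all genes, 394 (1.12%) held a match of this kind, and 0 held one with no mismatch. AGGTCA alone was in 3 of the 8 windows, those of SLC51B, NR1H4 and the first NR5A2 start, against 13.8% of all windows, and the SLC51B occurrence is part of the repeat. The GC box was in 1 of the 8, the first FGFR4 window, which held it 7 times, against 45.0% of all windows. TCAAGGTCA, the extended site of NR5A2, was in none of the 8 windows and in 0.353% of all. The GC content of the first FGFR4 window, 78.7%, exceeded that of 96.0% of all windows, while the KLB window was at 42.3%, above 15.5% of them. A match describes these letters and is not a measured binding site.

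USP22 itself stood at 58.1 FPKM with the control shRNA and 7.67 FPKM with the USP22 shRNA, where FPKM, fragments per kilobase of transcript and per 1000000 fragments, is the unit as which the deposited values were read. The summed values were 244301 and 218955 FPKM, and no read totals were used, so the depth is unknown. A difference is the log2 ratio of the FPKM values after 1 is added to each, USP22 shRNA over control, and it understates the change of low genes. A gene was called lower or higher when that ratio reached -1 or 1, which is a fold rule and not a test. Over the 10195 genes that averaged 1 FPKM or more, called kept below, 1247 (12.2%) were lower and 2454 (24.1%) higher. The ratio falls with the GC content of the transcript, so values with that trend removed by a lowess curve are given as well, and 8.92% of 10134 genes were then lower and 8.45% higher. The hepatocyte and hepatoma markers were all measured, 15 of 15 and none at 0, and summed to 4080 with the control shRNA and 2278 FPKM with the USP22 shRNA.

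Of the 8 genes, 5 were lower (FGF19, FGFR4, NR0B2, SLC51A and SLC51B), 1 was higher (KLB), and NR1H4 and NR5A2 were within the 2-fold rule, while 12.2% of all kept genes were lower and 24.1% higher. The median over the 8 log2 ratios was -1.58, beside 0.10 over all kept genes. Removal of the GC trend again gave 5 lower and 1 higher, at a median of -1.12, but 4 of the lower genes were shared: FGFR4 left the count and NR1H4 entered it. Over all genes 8.92% were then lower and 8.45% higher. In bulk RNA, fewer cells with a transcript and less transcript per cell cannot be told apart.

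**Figure D1:**
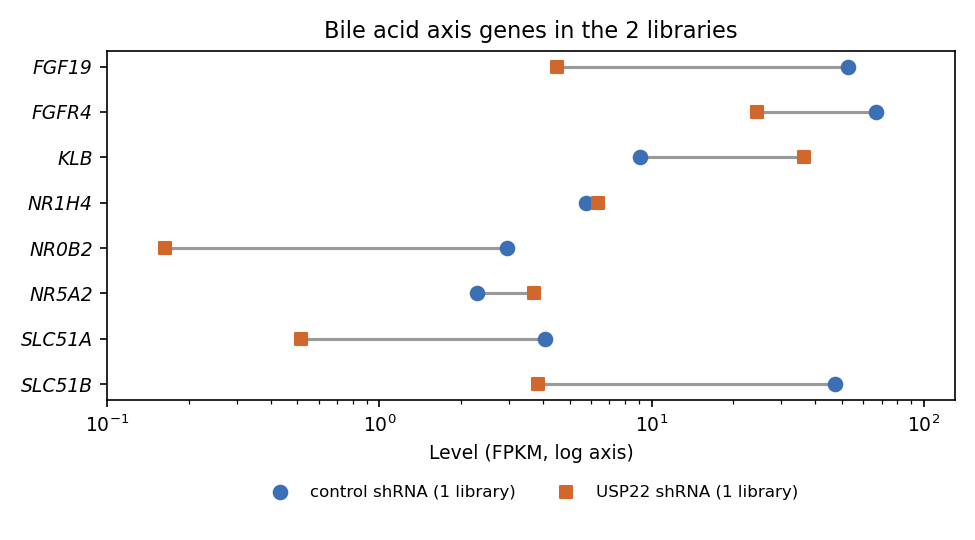
Level of each of the 8 genes in FPKM on a log axis, with 1 point per library: circles for the control shRNA and squares for the USP22 shRNA, joined by a line. FGF19 and SLC51B lie near 50 FPKM in the control and near 4 FPKM in the USP22 shRNA library, while KLB is the gene with a clearly higher level in the USP22 shRNA library.

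FGF19 (ENSG00000162344.3_2, chromosome 11), the hormone of the axis, was at 52.6 with the control shRNA and 4.50 FPKM with the USP22 shRNA, an 11.7-fold difference in the plain ratio. Its control level exceeded that of 93.5% of the 11976 genes, and its level in the USP22 shRNA library that of 47.2%. The log2 ratio of -3.29 was rank 8 from the lowest of 10195 genes. The transcript is GC rich, at 58.6%, in a range where lower ratios are common: of the 1013 genes in the same one of 10 equal bins by GC content, 224 were lower and 23 higher, with a median of -0.54. FGF19 ranked 2 from the lowest in that bin, and its ratio was -2.72 with the trend removed.

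The receptor kinase FGFR4 (ENSG00000160867.14_3, chromosome 5) was at 66.9 with the control shRNA and 24.5 FPKM with the USP22 shRNA, a log2 ratio of -1.41. It has the highest GC content of the 8, 63.6%, and in its bin of 1014 genes 353 were lower and the median was -0.71. FGFR4 ranked 167 from the lowest within that bin, and its ratio was -0.73 with the GC trend removed, inside the 2-fold rule.

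The co-receptor gene KLB (ENSG00000134962.6_2, chromosome 4) went the other way, from 9.05 FPKM in the control to 36.5 FPKM in the USP22 shRNA library, a 4.03-fold difference and a log2 ratio of 1.90. Its GC content was 44.4%, and in its bin 305 of 1014 genes were higher. KLB ranked 49 from the highest there, and its ratio was 1.20 with the GC trend removed. The FPKM ratio of FGFR4 to KLB was 7.39 with the control shRNA and 0.672 with the USP22 shRNA. As deposited, the order of the receptor and its co-receptor by level per transcript length was turned. On the log2(FPKM + 1) scale FGFR4 stood 2.76 above KLB with the control shRNA and -0.55 from it with the USP22 shRNA. With the whole GC correction put on the USP22 shRNA library, FGFR4 stood 0.83 above KLB there. The trend is one of the ratio between the libraries and cannot be assigned to either, so the corrected order is undecided.

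NR1H4 (ENSG00000012504.13_2, chromosome 12), the bile acid receptor itself, was at 5.73 with the control shRNA and 6.34 FPKM with the USP22 shRNA. Its log2 ratio was 0.13 as deposited, -0.08 with TMM scaling and -1.04 with the GC trend removed. NR1H4 is poor in GC, at 40.6%, in a bin where 628 of 1013 genes were higher, 5 were lower and the median was 1.23, and it ranked 90 from the lowest among them. Whether NR1H4 counts as close to its control level or as lower therefore depends on the reading of the GC trend, whose cause was not tested.

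NR0B2 (ENSG00000131910.4_2, chromosome 1), the target of NR1H4 that represses NR5A2, was at 2.95 with the control shRNA and 0.164 FPKM with the USP22 shRNA, an 18.1-fold difference in the plain ratio and the widest of the 8 on that scale. On the log2 scale with the pseudocount the ratio was -1.76, or -1.19 with the GC trend removed. The level in the USP22 shRNA library exceeded that of 1.66% of the genes listed, so the plain ratio rests on a value close to 0. NR5A2 (ENSG00000116833.13_2, chromosome 1) was at 2.29 with the control shRNA and 3.69 FPKM with the USP22 shRNA, a log2 ratio of 0.51 that became -0.70 once GC content was accounted for by the curve. At 40.0% it has the lowest GC content of the 8, and it falls in the same bin as NR1H4.

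The subunits of the bile acid exporter were both lower. SLC51A (ENSG00000163959.9_3, chromosome 3), which encodes the alpha subunit, was at 4.06 with the control shRNA and 0.517 FPKM with the USP22 shRNA, 7.86-fold apart, with a log2 ratio of -1.74, or -1.31 with the GC trend removed. SLC51B (ENSG00000186198.3_2, chromosome 15), which encodes the beta subunit, was at 47.0 with the control shRNA and 3.84 FPKM with the USP22 shRNA, 12.3-fold apart. Its log2 ratio of -3.31 was rank 6 from the lowest of 10195 genes and rank 3 of 10134 with the GC trend removed, at -3.22. The GC content of SLC51B, 50.6%, is near the middle of all genes, and 111 of the 1013 genes in its bin were lower, with a median of -0.14. The beta subunit exceeded the alpha subunit in FPKM in both libraries, 11.6-fold in the control and 7.43-fold in the USP22 shRNA library.

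**Figure D2:**
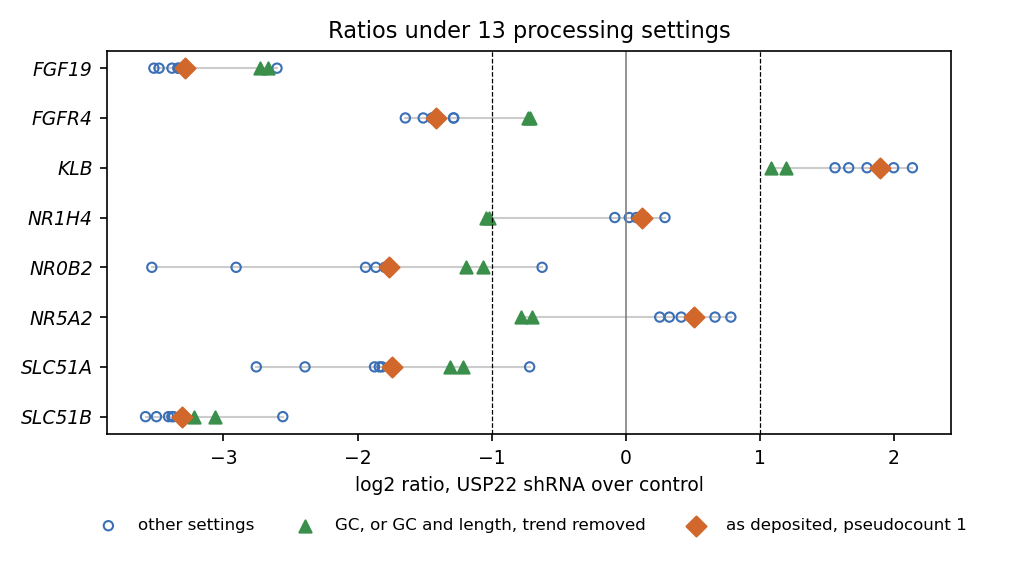
log2 ratio of USP22 shRNA over control for each of the 8 genes under 13 processing settings, with a diamond for the values as deposited, triangles for removal of the GC trend or of GC and length trends, open circles for the other settings, and dashed lines at the 2-fold rule. FGF19, SLC51B and KLB keep their side of the rule under every setting shown. The triangles of NR1H4 (-1.04 with the GC trend removed) and FGFR4 (-0.73) lie on the other side of it from their diamonds. Settings that change only the filter, the gene type or the fold rule repeat the value as deposited.

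**Figure D3:**
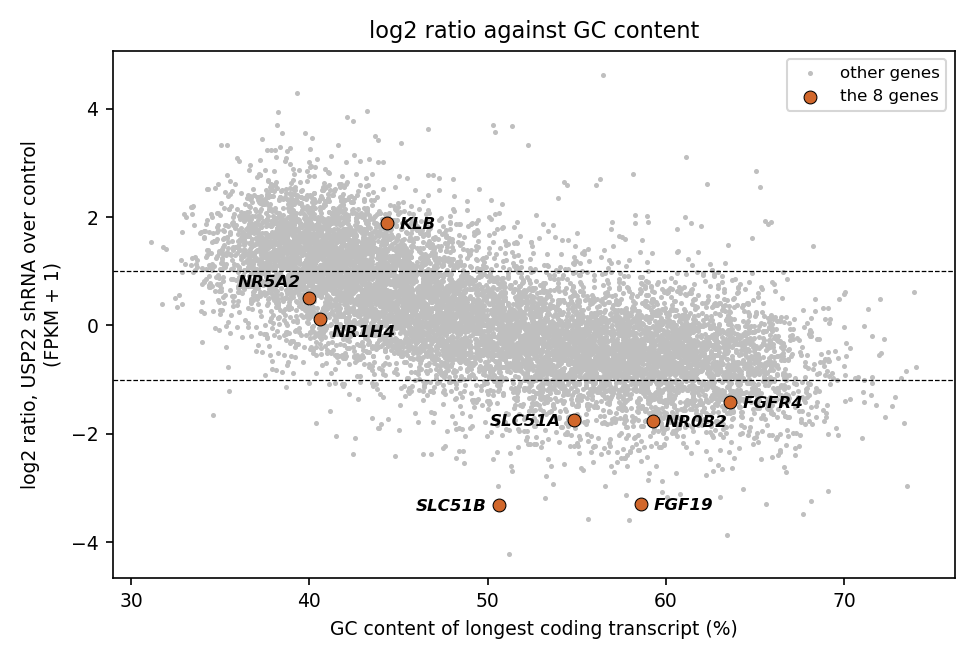
log2 ratio of USP22 shRNA over control (FPKM + 1) against the GC content of the longest coding transcript in percent, with each kept gene in grey and the 8 genes in orange. Dashed lines mark the 2-fold rule. FGF19 (-3.29) and SLC51B (-3.31) lie at the lower edge of the cloud at their GC content, FGFR4 (-1.41) lies within it, and NR1H4 (0.13) and NR5A2 (0.51) lie in the lower part of the cloud of AT-rich genes.

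SLC51A and SLC51B each share exon bases with a gene on the opposite strand in GENCODE 29, and no source used here says whether strand was used in the quantification, so both values are uncertain to that extent. The overlap is 60 bases (6.38% of the SLC51B exon bases) with RASL12, which was at 11.7 with the control shRNA and 7.43 FPKM with the USP22 shRNA, and 389 bases (7.35% of the SLC51A exon bases) with PCYT1A, at 9.41 and 14.4 FPKM. The other 6 genes share no exon base with another annotated gene.

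Neighbours on the chromosome were examined because genes of 1 segment can differ together. Of the 3 protein-coding genes on each side of each of the 8 genes, 48 in all, 30 were kept. Of these 3 were lower and 12 higher as deposited, beside 12.2% and 24.1% over all kept genes, at a median of 0.43. With the GC trend removed, those higher were RFC1 (1.51), NEK7 (1.10) and TFRC (1.06). Those then lower were RPL9 (-1.37), KDF1 (-1.13), SPG21 (-1.12) and MTFMT (-1.01), while 8.92% of all genes were lower and 8.45% higher. Next to FGF19 in the 11q13 segment, the cyclin gene CCND1 was at 48.8 with the control shRNA and 86.6 FPKM with the USP22 shRNA, and ORAOV1 at 3.27 and 1.73 FPKM. In a wider list of that segment, 15 of 22 genes were kept, 1 was lower (LRP5, at 75.2 and 31.4 FPKM) and 1 higher (PPP6R3, at 7.12 and 30.2 FPKM), with a median of -0.14. GAL, at 9.61 and 4.33 FPKM, had the next lowest ratio, and the lowest ratio in the segment other than that of FGF19 was -1.24. With the GC trend removed none of this list was lower, CTTN (1.09) was higher and the median was 0.37. The 3 kept neighbours of SLC51B ranged from -0.59 to -0.26, against -3.31 for SLC51B. Those of SLC51A ranged from 0.56 (PCYT1A) to 2.14 (TFRC), against -1.74. As deposited, NR0B2, FGFR4 and KLB each had neighbours called in their own direction. Of the 6 kept neighbours of NR0B2, 2 were lower, KDF1 (-1.71) and TRNP1 (-1.56), and the median of the 6 was -0.74. Of the 5 kept neighbours of FGFR4, 1 was lower, ZNF346 (-1.03), and 4 of the 5 kept neighbours of KLB were higher. With the GC trend removed TRNP1 was inside the 2-fold rule, at -0.96 beside -1.19 for NR0B2. RFC1 was then the only KLB neighbour that was higher, with KLHL5 at 0.64, WDR19 at 0.49 and UGDH at 0.32. FGFR4 (-0.73) then lay above its neighbour ZNF346 (-0.78).

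**Figure D4:**
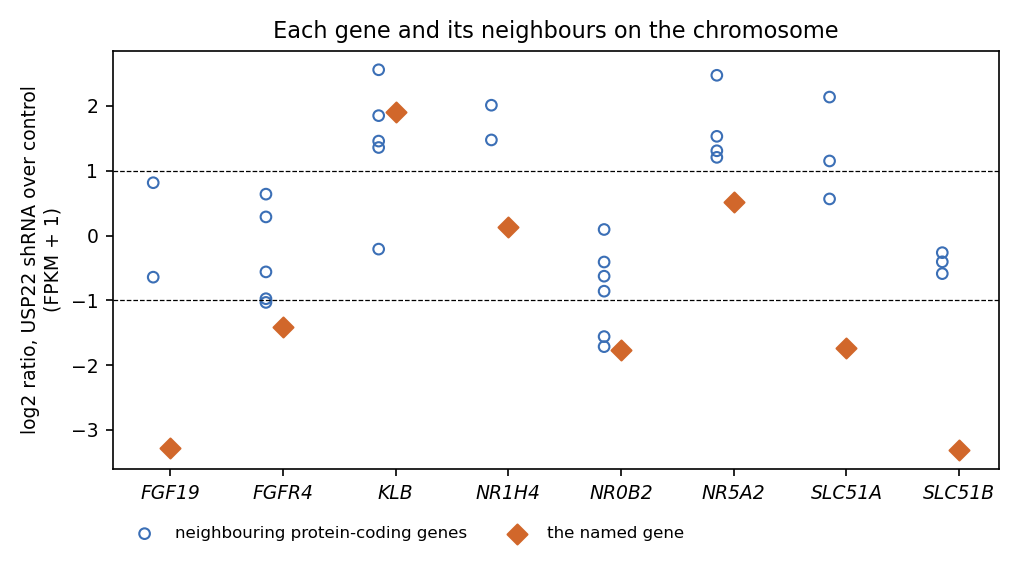
log2 ratio of USP22 shRNA over control (FPKM + 1) of each of the 8 genes (filled diamonds) and of those of its 6 nearest protein-coding genes that were kept (open circles), with dashed lines at the 2-fold rule. KLB lies within the range of its kept neighbours. As deposited, each of the other 7 genes lies below the lowest of its own, NR0B2 (-1.76) by the narrowest gap, to KDF1 (-1.71). With the GC trend removed, which is not drawn, FGFR4 (-0.73) lies above its neighbour ZNF346 (-0.78).

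The genes whose levels in the 2 libraries were nearest to those of FGF19, by Euclidean distance of log2(FPKM + 1) over 10159 protein-coding genes, were ETV4 at a distance of 0.23, SLC51B at 0.24 and HAMP at 0.30. ETV4, a transcription factor induced by FGF and ERK signalling, was at 44.9 with the control shRNA and 4.35 FPKM with the USP22 shRNA. HAMP, which encodes the iron hormone hepcidin, was at 42.5 and 4.56 FPKM. The 3 nearest to SLC51B were ETV4, RRP7A and FGF19, and the nearest to FGFR4 was another receptor of the family, FGFR3, at 65.3 and 23.3 FPKM. The remaining FGFR4 neighbours by level were ZNF787 and NPM3, those of KLB were GADD45A, DDX1 and SPATS2L, those of NR0B2 were ZBTB12, ST6GALNAC4 and UFSP1, and those of SLC51A were PELI3, KAZALD1 and SDC3. With 2 libraries such likeness rests on 2 values per gene and says nothing of shared control.

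Genes that relay and read out FGF receptor signals were described from lists written from general knowledge, with earlier results of these data known. Among 18 kept genes of FGF and ERK feedback and output, 6 were lower and none higher, beside 12.2% lower and 24.1% higher over all genes, and the median was -0.50. ETV4 had the lowest ratio, -3.10, followed by the feedback inhibitor SPRY4, at 15.2 with the control shRNA and 2.87 FPKM with the USP22 shRNA. The other lower genes were EGR1, MYC, DUSP5 and SPSB1, with log2 ratios from -1.30 to -1.05. CCND1 (0.81) and SPRED1 (0.74) had the highest ratios. With the GC trend removed, 3 were lower (ETV4, SPRY4 and DUSP6), 1 was higher (IER3) and the median was -0.64. The shares over all genes were then 8.92% lower and 8.45% higher. IER3 stood at 1.15 against 0.59 as deposited, and DUSP6, the phosphatase that turns ERK off, at -1.05 against -0.69. The values come from the same libraries as those of FGF19 and FGFR4, and a link between them was not tested.

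In the relay between receptor and ERK, 2 of 20 kept genes were lower, ARAF and SHC1, and 8 were higher, beside 12.2% lower and 24.1% higher over all kept genes, and the median was 0.25. The exchange factor SOS1, at 0.376 with the control shRNA and 7.06 FPKM with the USP22 shRNA, and the GTPase NRAS, at 7.93 and 48.8 FPKM, had the highest ratios. FRS2, the adaptor that docks on FGF receptors, was at 0.739 and 8.16 FPKM. With the GC trend removed, 4 were higher and 1 lower, beside 8.45% and 8.92% of all genes. FRS2 was then at 1.06 and SOS1 at 1.23. Of the other FGF ligands, receptors and Klotho genes, 8 of 24 were measured and 4 kept, and FGFR3 was the 1 lower. With the GC trend removed none of the list was lower or higher, and FGFR3 was at -0.82. FGF18 was at 1.80 and 0.412 FPKM, FGFR1 at 1.94 and 0.762 FPKM, and the decoy receptor FGFRL1 at 13.4 and 15.4 FPKM.

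Among nuclear receptors and liver factors read beside NR1H4, 5 of 12 kept genes were lower and none was higher, beside 12.2% and 24.1% over all kept genes. The median was -0.90, or -0.52 with the GC trend removed, where 3 were lower beside 8.92% of all genes. Transcripts of this list are GC rich, at a median of 58.4%, in a range where lower ratios are common. CEBPA had the lowest ratio, -2.42, and RXRA, the binding partner of NR1H4, was at 17.7 with the control shRNA and 7.14 FPKM with the USP22 shRNA. HNF4A, which sustains hepatocyte genes, was at 17.8 and 7.56 FPKM, and NR1H2 was at 13.9 and 5.10 FPKM. FOXA1 (0.27) and RXRB (0.10) had the highest ratios. RXRA (-0.53), NR1H2 (-0.63) and HNF4A (-0.85) were inside the 2-fold rule with the GC trend removed, and PROX1 (-1.29) was then lower.

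Among coregulators known to work with FXR, 8 of 18 kept genes were higher and 2 lower, beside 24.1% and 12.2% over all kept genes, and the median was 0.61. NRIP1, at 0.774 with the control shRNA and 7.84 FPKM with the USP22 shRNA, and NCOA2, at 1.35 and 8.68 FPKM, had the highest ratios. The methyltransferase gene KMT2D (-1.05) was among the lower genes. After the GC trend was removed 3 were higher (NCOA2, NRIP1 and MED1, the last at 1.35) and none lower, at a median of 0.29. Of all genes 8.45% were then higher and 8.92% lower.

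Other target genes of FXR differed in both directions, with 7 of 17 kept genes lower, 2 higher and a median of -0.25. Beside these counts, 12.2% of all kept genes were lower and 24.1% higher. The list does not separate targets by the direction in which FXR acts on them. AKR1B10 (-2.25) and the phospholipid transfer protein gene PLTP, at 18.9 with the control shRNA and 4.32 FPKM with the USP22 shRNA, had the lowest ratios. VLDLR, at 1.09 and 7.75 FPKM, and the fibrinogen gene FGG (1.88) had the highest. With the GC trend removed 3 were lower and 1 higher, beside 8.92% and 8.45% of all genes, at a median of -0.38. None of these genes had a ratio as low as that of FGF19 or SLC51B.

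Bile acid synthesis is the pathway that FGF19 and NR0B2 restrain. CYP7A1 and CYP8B1 are not analysed here. Of 20 listed genes 14 were measured and 11 kept. As deposited 2 were lower and 2 higher, beside 12.2% and 24.1% over all kept genes, with a median of 0.42. With the GC trend removed 1 was lower and 1 higher, beside 8.92% and 8.45% of all genes, and the median was 0.04. The peroxisomal oxidase gene ACOX2 was at 4.45 with the control shRNA and 0.703 FPKM with the USP22 shRNA, and ACOT8 was the other lower gene, at 6.78 and 2.41 FPKM. EHHADH, at 1.37 and 5.67 FPKM, and the reductase gene AKR1D1, at 1.18 and 3.57 FPKM, were higher, and both were inside the 2-fold rule with the GC trend removed. CYP27A1, which starts the alternative synthesis route, was at 17.0 and 18.0 FPKM.

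The other bile acid and sterol transport genes had ratios above those of both exporter subunits as deposited, but not with the GC trend removed, where FABP1 lay below SLC51A. Of 11 kept genes, FABP1, a lipid and bile acid binding protein, was the 1 lower (-1.28), 3 were higher (ABCG2, ATP8B1 and TMEM30A) and the median was 0.47. The canalicular pump gene ABCC2 was at 6.07 with the control shRNA and 7.36 FPKM with the USP22 shRNA, the phospholipid floppase gene ABCB4 at 1.16 and 1.57 FPKM, and ABCC3, another basolateral exporter, at 1.68 and 1.70 FPKM. SLCO2B1 had the next lowest ratio, -0.43. The shares over all kept genes were 12.2% lower and 24.1% higher. Removal of the GC trend left none higher and FABP1 lower, while 8.45% of all genes were higher and 8.92% lower. FABP1 was then at -1.66 beside -1.31 for SLC51A, and the median was -0.30. In bile acid detoxification, 5 of 13 genes were kept, with UGT2B4 lower (4.34 and 1.55 FPKM), the sulfotransferase gene SULT2A1 (7.66 and 22.7 FPKM) and GSTA2 (3.75 and 8.93 FPKM) higher, PAPSS2 at -0.25 and a median of 0.42, or -0.48 with the GC trend removed. None was then higher, with SULT2A1 at 0.64 and GSTA2 at -0.12, and UGT2B4 was the 1 lower, at -2.28.

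**Figure D5:**
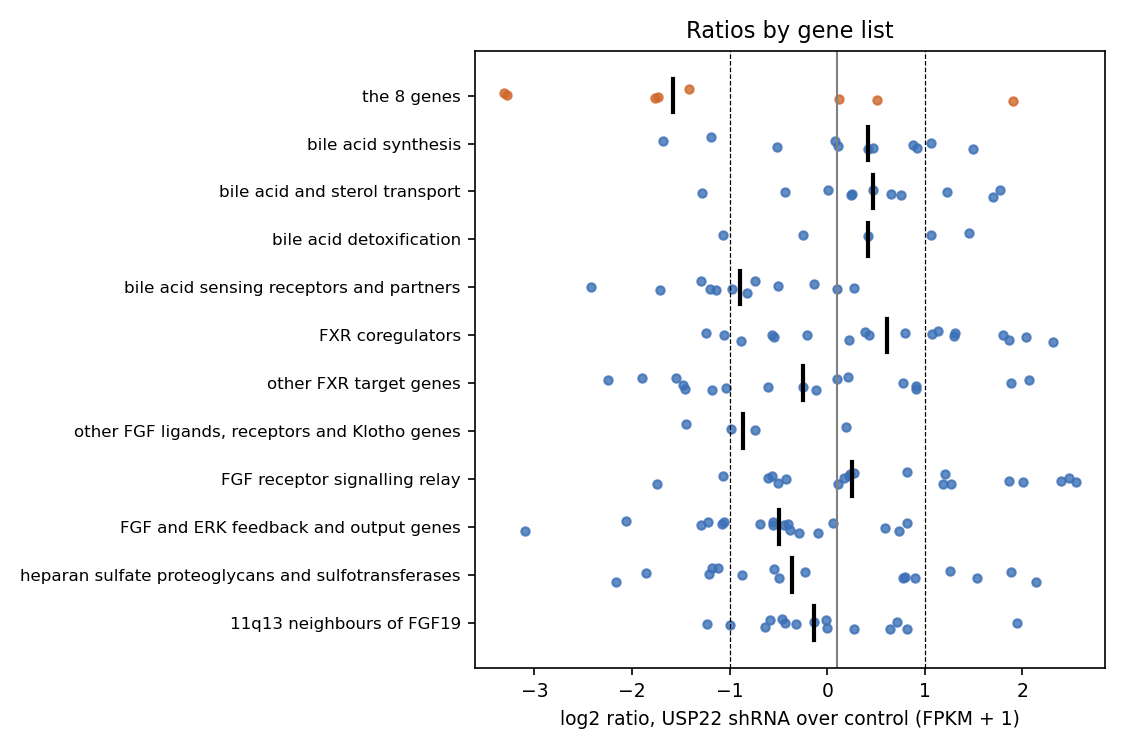
log2 ratio of USP22 shRNA over control (FPKM + 1) for the kept genes of each list, 1 point per gene with a small vertical scatter for legibility, a thick bar at each list median, a grey line at the median of all genes (0.10) and dashed lines at the 2-fold rule. The median of the 8 genes is -1.58, that of the receptors and partners is -0.90, and that of the FXR coregulators is 0.61.

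Because FGF19 is normally an ileal hormone, markers of intestinal epithelium were read beside it. Of 13 markers 5 were measured, none at 0 in both libraries, and they summed to 125.6 with the control shRNA and 44.0 FPKM with the USP22 shRNA. The intestinal transcription factor gene CDX2 was at 16.5 and 2.39 FPKM and the microvillus gene VIL1 at 94.9 and 28.1 FPKM, and these were the 2 lower of 4 kept, as they also were with the GC trend removed. CDH17 had a log2 ratio of -0.12, and LGR5 had the highest, 0.69. The intestinal bile acid genes FABP6 and SLC10A2 are not analysed here. The part of these markers in the FGF19 values was not tested. Of the 15 hepatocyte and hepatoma markers 7 were lower and none higher, at a median of -0.98, with APOA1 at the highest level (781 and 381 FPKM). With the GC trend removed 6 were lower and none higher, at a median of -0.85. For both marker lists, the shares over all kept genes were 12.2% lower and 24.1% higher as deposited. They were 8.92% and 8.45% with the GC trend removed.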

How the data were processed

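The members and gene lists were chosen with earlier results of these data known. Per the submitters' processing notes, the build was GRCh37 and the tools included StringTie 1.3.0 and HISAT2 2.0.4, with no role named for either; no source used here names the annotation. Per the labels' protocols, RNA was extracted with TRIZOL and libraries were made with an mRNA kit. The deposited values name no unit and were read as FPKM, an assumption that does not touch plain ratios within a gene beyond 1 constant per library. From them, the log2 ratio, USP22 shRNA over control after adding 1 to each, was computed for the 10195 of 11976 genes that averaged 1 FPKM or more, with a size rule of 2-fold. Where a symbol has 2 rows (7 symbols), lists used the more abundant row. The type, order and overlaps of genes, and the length and GC content of each gene's longest coding transcript, came from GENCODE 29 (GRCh38), matched by Ensembl identifier, and 98.8% of genes had a GC value. The GC trend was removed by lowess over a 30% span (statsmodels 0.14.6). That adjustment was checked on simulated data with a straight trend and genes averaging 5 FPKM or more. It was not checked for lower levels, which include those of NR0B2, SLC51A and NR5A2. There were 11 pathway lists and 4 marker lists. Within a list, the 2 highest, the 2 lowest and, where 5 or fewer passed the size rule, those genes were named by rule; further genes were named for their role after their values were seen. A few items to which this rule applies are not reported here. Start-site windows came from RefSeq (GRCh38.p14). Alternatives were pseudocounts of 0.1 and 5, median centring, TMM (unweighted, over genes above 0 in both libraries, trimming 30% of ratios and 5% of levels from either end), rescaling without mitochondrial genes or to 1000000, no filter, a mean of at least 5, protein-coding genes only, a 1.5-fold rule, and removal of GC or GC and length trends. No count model was used, since depth is unknown.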

Additional observations from a re-analysis of the deposited data

How the results depend on the processing

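Neither group has a replicate, so nothing here is set against replicate error, and depth is unknown. No paired analysis was possible because each group has 1 library. The 5 lower and 1 higher of the 8 genes were the same genes under 8 of the 12 alternatives. Among these, no filter, protein-coding genes only and the 1.5-fold rule leave each ratio of the 8 genes unchanged. They could therefore take no gene out of these counts. With a pseudocount of 5, or a mean of at least 5 FPKM, which keeps 5 of the 8, 3 were lower (FGF19, FGFR4 and SLC51B). With the pseudocount of 5, NR0B2 was at -0.62 and SLC51A at -0.72. With the GC trend removed, or GC and length trends together, FGFR4 was at -0.73 and -0.71, NR1H4 at -1.04 and -1.02 and NR5A2 at -0.70 and -0.78. Over all alternatives FGF19 ranged from -3.52 to -2.60, SLC51B from -3.58 to -2.56 and KLB from 1.08 to 2.14.

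TMM scaling moved the median of all genes by -0.22 and rescaling to 1000000 by 0.22. The share of higher genes among those called was 66.3% as deposited, 52.5% with TMM, 48.6% with the GC trend removed and 48.3% with GC and length trends removed. Over all genes, 534 were lower and 888 higher with a pseudocount of 5, 3936 higher after rescaling to 1000000, 1184 higher with a mean of at least 5 FPKM, 2464 lower with the 1.5-fold rule, and 856 and 828 higher with the GC, or GC and length, trends removed. Of the list counts under alternatives, 254 were within 1.5 times the main count and 106 were not; the cause was not tested.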

Other observations

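Heparan sulfate chains help FGF ligands bind their receptors, although FGF19 binds them weakly. Of 21 genes for heparan sulfate proteoglycans and the enzymes that build and sulfate the chains, 16 were kept. As deposited 5 were lower and 4 higher, beside 12.2% and 24.1% over all kept genes, with a median of -0.36. With the GC trend removed 3 were lower and 2 higher, beside 8.92% and 8.45% of all genes, and the median was -0.33. The 6-O-sulfotransferase genes differed in opposite directions: HS6ST1 was at 9.80 with the control shRNA and 1.41 FPKM with the USP22 shRNA, and HS6ST2 at 1.34 and 7.65 FPKM, with GC-corrected log2 ratios of -1.55 and 1.23. The syndecan gene SDC3, at 4.23 and 0.439 FPKM, was lower, as were SDC1 (33.8 and 14.4 FPKM), EXT1 (9.63 and 3.90 FPKM) and NDST1 (21.3 and 8.68 FPKM). The glypican gene GPC6 was at 1.85 and 11.5 FPKM, while GPC3, a glypican known as a marker of liver cancer, was at 191 and 135 FPKM. HS2ST1 and EXTL2 were the other higher genes, at 1.25 and 1.54, and both were inside the 2-fold rule with the GC trend removed.

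Markers of bile duct epithelium were led by KRT19, at 290 with the control shRNA and 192 FPKM with the USP22 shRNA. Of 10 markers 6 were kept, with SLC4A2 lower (52.3 and 23.0 FPKM) and SPP1 higher (1.15 and 3.51 FPKM), and the markers summed to 397 and 259 FPKM. The shares over all kept genes were 12.2% lower and 24.1% higher as deposited, and 8.92% and 8.45% with the GC trend removed. With that trend removed none of the bile duct markers was lower or higher, with SLC4A2 at -0.53 and SPP1 at -0.04. Markers of blood, endothelium and stroma summed to 20.1 with the control shRNA and 25.8 FPKM with the USP22 shRNA over the 6 measured of 14, with COL1A2 at the highest level, 11.2 and 13.7 FPKM. The 1 higher gene of the 5 kept was LUM, at 1.37 and 8.95 FPKM, and the 1 lower was CD68, at 3.88 and 0.416 FPKM, and without LUM the markers summed to 18.7 and 16.8 FPKM. With the GC trend removed LUM was inside the 2-fold rule, at 0.72, and CD68 stayed lower, at -1.33.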
